A study of Mus musculus with 12 samples.

Results

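The genes of matrix proteolysis were followed in the retinal pigment epithelium (RPE) of 6 WT and 6 rd6 mice: the matrix metalloproteinases (MMPs), the tissue inhibitors of metalloproteinases (TIMPs), the membrane-anchored ADAM proteases, the secreted ADAMTS proteases and the ADAMTS-like proteins, which keep the matrix-binding parts of an ADAMTS but have no protease domain. Members were the genes whose symbol starts with Mmp, Timp, Adam, Adamts or Adamtsl followed directly by a digit and whose mean over the 12 libraries was at least 10 normalized counts, that is, reads divided by the size factor of the library. Of 70 genes with such a symbol, 51 reached that mean, among 17768 genes at that level of the 28591 in the table. They comprised 13 of 20 *Mmp*, 4 of 4 *Timp*, 16 of 22 *Adam*, 13 of 19 *Adamts* and 5 of 5 *Adamtsl* genes. The members nearest the limit were *Adam32* with a mean of 10.7 and *Adamts17* with 13.1, and the nearest genes left out were *Adamts20* with 9.47 and *Adamts18* with 9.36.

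All mice were 1 mo old. The WT mice were C57BL/6J and the rd6 mice were homozygous for the rd6 allele of *Mfrp* (Mfrp rd6/rd6), a splicing mutation of the gene for membrane frizzled-related protein. Each library came from the RPE of a pair of eyes, as total RNA, after the anterior segment and neural retina had been taken off the eyecup, so that choroid lay next to the cells collected; whether the WT mice were littermates is not given in the sources used here, and p-values therefore measure the spread between these samples. The reads on genes summed to between 29218135 and 33152725 in the WT libraries and between 28907262 and 32336530 in the rd6 libraries.

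Proteases of these families cut collagens, proteoglycans and fibrillin microfibrils outside the cell, and the ADAMs release growth factors, cytokines and receptors from the cell surface. The TIMPs bind the active site of these enzymes and hold them in check. In the eye the RPE rests on Bruch's membrane, a matrix sheet in which TIMP3 is bound, and inherited changes of TIMP3 in humans cause Sorsby fundus dystrophy, a disease of that sheet.

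*Mfrp* itself was lower in every rd6 library, at 25881 ± 3091 normalized counts (n = 6) against 40022 ± 5488 in WT, a 1.54-fold difference (limma q = 0.00126, where q is the Benjamini-Hochberg adjusted p-value over all 17768 genes). Here and below ± gives the SD over the 6 libraries of a genotype and, beside a log2 fold change, its SE. Markers of other cells moved with the genotype. Of 13 microglia and macrophage markers 12 rose in rd6, of 10 endothelial markers 6 rose, of 11 rod markers 4 fell, and of 8 RPE markers 4 fell, namely *Rgr*, *Lrat*, *Rpe65* and *Rlbp1*. At q below 0.05, 11.4% of all genes tested were higher and 11.6% were lower. The 8 RPE markers summed to between 951597 and 1416307 normalized counts in WT and between 632304 and 907004 in rd6, so the labelled tissue was present in all libraries. In bulk RNA fewer cells of a type and less RNA per cell cannot be told apart, and the part of these shifts in the results below was not tested. Libraries also stood apart within the genotypes: WT replicate 4, rd6 replicate 5 and rd6 replicate 1 lay at one end of the first principal component, which held 49.6% of the variance, and held the most reads of the keratins of the ocular surface, 47398 to 168673 normalized counts summed over 5 markers against 8.30 to 13341 in the other 9 libraries. The library of rd6 replicate 5 was also rich in rod reads: the 11 rod markers summed to 65274 normalized counts in it, to between 17886 and 24532 in the other 5 rd6 libraries and to between 34467 and 74047 in WT, and without it 10 of the 11 fell. Without WT replicate 5, 7 of them fell, and without any other single library between 3 and 6. Of the 8 RPE markers 6 fell without WT replicate 4, 5 without rd6 replicate 6 and 4 without any other single library. Without the 3 libraries richest in ocular surface keratins 6 of the 8 fell. The endothelial count was between 4 and 9 of 10 without single libraries, and 1 of 10 without the 5 libraries richest in ocular surface keratins, which add WT replicate 2 and rd6 replicate 2 to the 3 above. Values without them are given where a result rests on them.

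Among the 51 members, 5 were higher in rd6 at q below 0.05 (9.8%, against 11.4% of all genes tested) and 6 were lower (11.8%, against 11.6%), shares close to those of all genes. The higher members were *Adam7*, *Adam33*, *Adamts7*, *Adamts1* and *Adamtsl5*, and the lower ones *Adamtsl4*, *Mmp17*, *Adam1a*, *Timp3*, *Adam22* and *Adam9*. With a change of at least 0.81 on the log2 scale asked for as well, a fold limit, 4 members were higher (7.84%, against 4.69% of all genes) and 1 was lower (1.96%, against 2.12%). The lower count was 2 without WT replicate 4 or rd6 replicate 5, and 3 without rd6 replicate 1 or rd6 replicate 2. For 3 members (5.88%, against 5.77% of all genes) the rd6 libraries all exceeded the highest WT library: *Adam7*, *Adam33* and *Adamts7*. For 4 members (7.84%, against 5.67%) they all fell short of the lowest WT library: *Adam22*, *Adam9*, *Adamtsl4* and *Timp3*. The median log2 fold change of the members was -0.04, with 22 of 51 above 0, and that of all genes was 0.0049, with 9017 of 17768 above 0. In the plot of all members by role, 3 of the 9 roles hold both a called rise and a called fall.

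**Figure D1:**
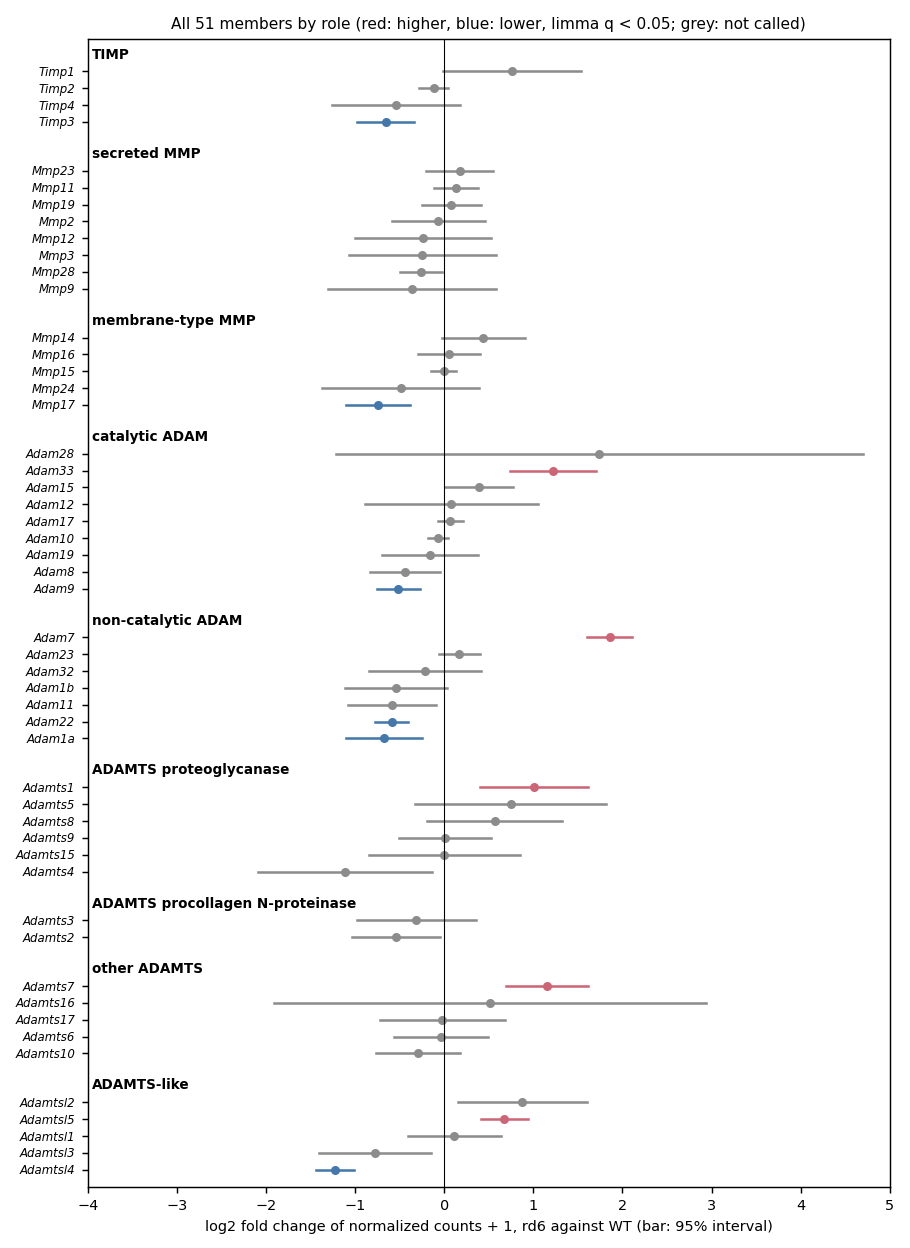
Log2 fold change of rd6 against WT (horizontal axis, from normalized counts + 1) with its 95% interval for each of the 51 members, grouped by role, with members higher at q below 0.05 in red, lower in blue and the rest in grey. *Adam7* lies farthest to the right of the called members at 1.85 and *Adamtsl4* farthest to the left at -1.23, and the longest interval is that of *Adam28*, from -1.22 to 4.70.

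Of the called members, 6 of 11 had an entry among the RefSeq promoters (GRCm38.p6, the assembly also called mm10), and the bases before the start of 3 of them are shown because these carry the largest fall, the most abundant transcript and the largest rise with a promoter entry. Each is written from 5′ to 3′ on the strand of its gene, and capitals mark the motifs found. The *Adamtsl4* bases are chr3:95687918-95688167 (minus strand), the *Adamts1* bases chr16:85803114-85803363 (minus strand) and the *Timp3* bases chr10:86300162-86300371 (plus strand), the last ending where GENCODE M21 starts the first exon.
Adamtsl4: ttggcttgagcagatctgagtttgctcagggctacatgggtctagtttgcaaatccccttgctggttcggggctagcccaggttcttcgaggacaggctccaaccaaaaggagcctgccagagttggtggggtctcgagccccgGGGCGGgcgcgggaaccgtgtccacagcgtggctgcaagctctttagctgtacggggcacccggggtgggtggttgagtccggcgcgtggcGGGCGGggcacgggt
Adamts1: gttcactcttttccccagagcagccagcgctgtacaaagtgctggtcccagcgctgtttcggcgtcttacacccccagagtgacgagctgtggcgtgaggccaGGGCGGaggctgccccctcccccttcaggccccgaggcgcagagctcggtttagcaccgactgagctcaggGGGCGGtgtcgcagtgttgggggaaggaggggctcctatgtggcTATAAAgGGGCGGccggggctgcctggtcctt
Timp3: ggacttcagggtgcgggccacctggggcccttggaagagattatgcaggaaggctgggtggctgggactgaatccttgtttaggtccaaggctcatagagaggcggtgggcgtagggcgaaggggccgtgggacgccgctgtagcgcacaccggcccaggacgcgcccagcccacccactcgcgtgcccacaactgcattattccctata
Both strands of the 250 bases before each start were searched for 6 motifs written as letters: the GC box GGGCGG and the TATA box TATAAA, the AP-1 site TGANTCA, the MITF-type E-box CACGTG and the M-box core CATGTG, and the OTX core TAATCC. *Adamts1* held GC boxes beginning 147, 76 and 25 bases before its start and a TATA box 32 bases before it, and *Adamtsl4* held GC boxes 106 and 15 bases before its start. *Timp3* held 1 GC box, 15 bases before the RefSeq start and inside the stretch not printed. A GC box was present in 20 of the 34 promoters of 30 members with an entry (58.8%) and in 32.7% of all 32851 promoters of that length, a TATA box in 8.82% and 12.4%, and an AP-1 site in 8.82% and 6.75%. The MITF-type E-box was in 8.82% and 6.02%, the M-box core in 2.94% and 12.3%, and the OTX core in 0 of 34 and in 6.25% of all. The members had passed the filter on mean level and the full set of promoters was not filtered, so these shares compare unlike sets. These are descriptions of letters in a window and say nothing of binding.

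The inhibitors *Timp3* and *Timp2* were the most abundant members per exon length, while *Timp1*, at 54.8 normalized counts per kb in WT, and *Timp4*, at 8.48, ranked 18 and 35 of 51. In WT, *Timp3* averaged 33393 normalized counts per kb of exon and ranked 30 of 17755 genes by that level, and *Timp2* averaged 5264 per kb and ranked 243. Together the 4 *Timp* genes took 0.940% ± 0.0980 of the reads on genes in WT and 0.641% ± 0.0955 in rd6 (SD, n = 6 each). All members together took 0.876% to 1.16% in WT and 0.549% to 0.806% in rd6. *Timp3* alone made up 76.0% ± 1.59 of the members' summed level per kb in WT and 67.1% ± 3.23 in rd6. The next members by WT level per kb were *Adam9* at 1220, *Adamtsl4* at 914, *Adam10* at 790 and *Adam7* at 336.

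**Figure D2:**
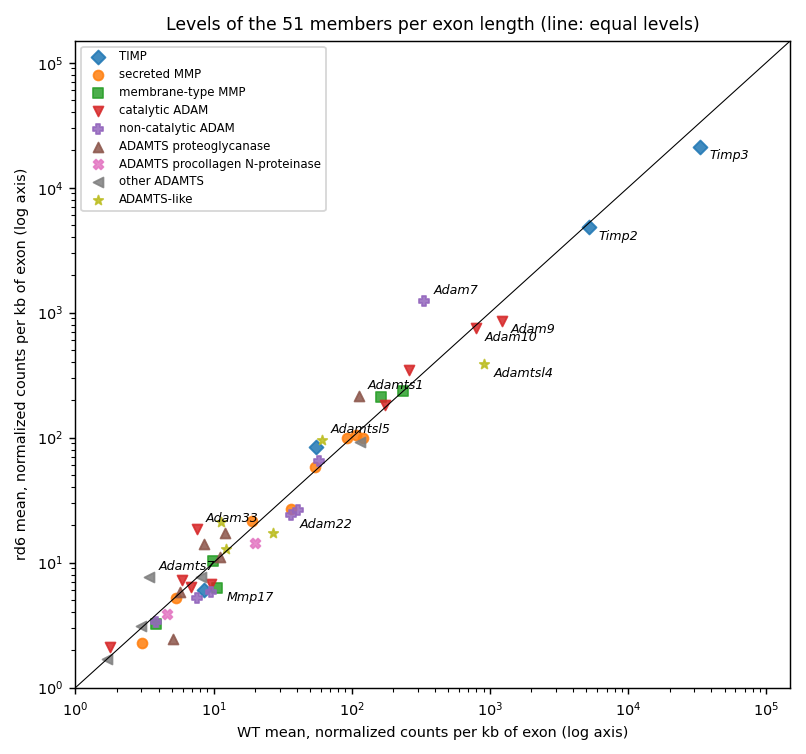
Mean level of each member per kb of exon in WT (horizontal, log axis) and rd6 (vertical, log axis), 1 point per gene with the marker giving the role and the line marking equal levels. *Timp3* lies at the top right, at 33393 in WT and 21327 in rd6, and *Adam7* rises above the line from 336 to 1230.

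*Timp3* (ENSMUSG00000020044, chr10:86300372-86349506, plus strand) ranged from 211363 to 311883 normalized counts in the WT libraries, with a median of 275147, and from 116745 to 201921 in the rd6 libraries, with a median of 180342. The groups did not overlap, and rd6 replicate 5 was the lowest library. The transcript fell by 0.66 ± 0.15 (SE) on the log2 scale, 1.58-fold (95% interval 1.27 to 1.97, limma q = 0.00642). Without the 3 libraries richest in ocular surface keratins, left out after seeing the data, the log2 fold change was -0.60 (q = 0.000474), and without rd6 replicate 5 alone it was -0.55 (q = 0.00478). Beside it, the 8 RPE markers had a median log2 fold change of -0.40. *Timp3* lies within *Syn3*, on the opposite strand, and 21.3% of its exon bases are also exon bases of *Syn3*. The authors counted reads with Rsubread at standard parameters, whose default does not use strand, and no other strand setting is named. *Syn3* averaged 114 ± 11.5 in WT and 88.0 ± 11.1 in rd6 (log2 fold change -0.38, q = 0.0253), and the part of shared reads in either value was not tested.

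*Timp2* (ENSMUSG00000017466, chr11:118301069-118355740, minus strand), which inhibits MMPs and also carries pro-MMP2 to MT1-MMP for activation, ranged from 16633 to 22747 in WT (median 20832) and from 16656 to 20129 in rd6 (median 19052). The groups overlapped, and the interval of the fold change ran from 0.820 to 1.03 (log2 fold change -0.12, limma q = 0.293). Without WT replicate 4, its lowest WT library, the log2 fold change was -0.18 and q was 0.0449. *Timp1*, the inhibitor often induced in injury, averaged 48.6 ± 31.2 in WT and 75.0 ± 23.9 in rd6 (log2 fold change 0.76, q = 0.146). Its WT libraries ranged from 25.6 to 102 with replicate 6 the highest, and without that library the log2 fold change was 1.01 and q was 0.0370. *Timp4* had 49.97 ± 16.2 in WT and 35.4 ± 17.8 in rd6 (log2 fold change -0.54, q = 0.269), with overlapping groups. *Timp1* and *Timp4* lie within *Syn1* and *Syn2*. Of the 4 inhibitors 1 fell, against 11.6% of all genes tested, and the other 3 did not pass the test.

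Of the 8 tested MMPs listed as secreted, *Mmp23* among them, 0 passed q below 0.05 by limma. By edgeR and DESeq2 it was likewise 0, with 1 (*Mmp28*) at an unadjusted limma p below 0.05. Their median log2 fold change was -0.15. The gelatinase *Mmp2* averaged 363 ± 96.6 in WT and 357 ± 128 in rd6, with a fold change of 0.955 and an interval from 0.667 to 1.37 (q = 0.871). *Mmp9*, the other gelatinase, was near the lower end of what was counted, at 19.0 ± 4.59 in WT and 18.5 ± 16.4 in rd6 (q = 0.587). In *Mmp9* the highest library was rd6 replicate 5, at 49.7, and the other 5 rd6 libraries lay between 4.97 and 22.7. Without the 3 libraries richest in ocular surface keratins its log2 fold change was -0.76 (q = 0.163), and without rd6 replicate 5 alone -0.71 (q = 0.160), against -0.36 with all libraries. *Mmp28*, or epilysin, had the highest WT level per kb of the secreted enzymes at 120, averaging 464 ± 75.0 in WT and 385 ± 43.0 in rd6 (log2 fold change -0.26, q = 0.110). Without WT replicate 6 its log2 fold change was -0.33 and q was 0.0466. The 8 enzymes summed to between 1287 and 1580 normalized counts in WT and between 1137 and 1522 in rd6, so that the ranges overlapped.

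Of the 5 membrane-type MMPs, which sit on the cell surface, 1 fell, against 11.6% of all genes. The other 4 did not pass the test. *Mmp17* (ENSMUSG00000029436, chr5:129584169-129611099, plus strand), the glycolipid-anchored MT4-MMP, averaged 70.5 ± 13.6 normalized counts across WT and 41.5 ± 7.48 across rd6. Its WT libraries ranged from 49.5 to 84.0 (median 73.2) and its rd6 libraries from 35.8 to 51.5 (median 37.5). The ranges met only at WT replicate 4, the lowest WT library, and at the 2 highest rd6 libraries. The transcript fell by 0.74 ± 0.17 on the log2 scale (1.68-fold, limma q = 0.00654). *Mmp14*, which encodes MT1-MMP, the activator of pro-MMP2, ranged from 758 to 1831 in WT (median 805) and from 897 to 1696 in rd6 (median 1188). In WT, replicate 4 stood at 1831 and the other 5 libraries lay between 758 and 814, below all 6 rd6 libraries. With all libraries the log2 fold change of *Mmp14* was 0.44 ± 0.22 (q = 0.169), and without WT replicate 4 it was 0.64 (q = 0.00425). *Mmp15*, for MT2-MMP, was at 1279 ± 79.7 in WT and 1274 ± 125 in rd6, with a log2 fold change of -0.0086 and an interval from -0.15 to 0.14 (q = 0.942).

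The catalytic ADAMs, 9 of which were tested, had 1 member that rose and 1 that fell. These shares are close to those of all genes, 11.4% higher and 11.6% lower. *Adam9* (ENSMUSG00000031555, chr8:24949611-25016927, minus strand), whose loss in humans causes a cone-rod dystrophy, was the most abundant of them. It ranged from 4185 to 5451 normalized counts in WT (median 5156) and from 2543 to 4123 in rd6 (median 3659). The genotypes did not overlap, with WT replicate 4 the lowest WT library at 4185 and rd6 replicate 5 the lowest rd6 library. The transcript fell by 0.52 ± 0.11 on the log2 scale (1.43-fold, 95% interval 1.21 to 1.69, limma q = 0.00523). Without rd6 replicate 5, the library rich in both keratin and rod reads, its log2 fold change was -0.42 (q = 0.00333).

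*Adam10* and *Adam17* encode the best known surface sheddases, which act on Notch and on tumor necrosis factor among others. *Adam10* averaged 3883 ± 183 in WT and 3703 ± 233 in rd6, with an interval of the fold change from 0.883 to 1.03 (limma q = 0.355). *Adam17* had 1238 ± 119 and 1295 ± 63.0, with an interval from 0.954 to 1.15 (q = 0.470). For both, the groups overlapped.

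*Adam33* (ENSMUSG00000027318, chr2:131050591-131063814, minus strand), a protease known from smooth muscle and fibroblasts of the airway, ranged from 33.0 to 49.3 normalized counts in WT (median 40.5) and from 62.0 to 157 in rd6 (median 93.2). The genotypes did not overlap, and rd6 replicate 5 was the highest library. The transcript rose by 1.22 ± 0.22 on the log2 scale (2.33-fold, 95% interval 1.66 to 3.26, limma q = 0.00181). Without rd6 replicate 5 its log2 fold change was 1.07 (q = 0.00260). Beside it, 3 of 9 mural cell markers rose and 1 of 8 stromal fibroblast markers fell. At q below 0.05, 11.4% of all genes tested were higher and 11.6% lower, a share close to that of the stromal fall. The part of these cells in *Adam33* was not tested. These counts moved with single libraries. The mural markers that rose were between 2 and 5, with 5 without WT replicate 4. In that setting, and without rd6 replicate 4, 1 mural marker fell. The stromal markers that fell were 3 without rd6 replicate 1, 2 without rd6 replicate 2 and 1 without any other library. Without WT replicate 3 or WT replicate 4, 1 stromal marker rose.

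The ADAMs listed as non-catalytic are best known for adhesion and binding. Of 7 tested 1 rose and 2 fell, against 11.4% and 11.6% of all genes. *Adam7* (ENSMUSG00000022056, chr14:68497336-68533741, minus strand), best known as an epididymal surface protein, ranged from 1231 to 1515 normalized counts in WT (median 1503) and from 3756 to 6498 in rd6 (median 5643). All 6 rd6 libraries lay far above the WT libraries, of which replicate 4 was the lowest. The transcript rose by 1.85 ± 0.12 on the log2 scale, 3.62-fold (95% interval 3.04 to 4.30, limma q = 2.66e-07), the largest rise among the members called. Over the 23 alternative settings the log2 fold change lay between 1.746 and 1.951. Its level per kb went from 336 to 1230, close to the WT level per kb of *Adam9*, 1220. Its neighbour *Adam28* (chr14:68606027-68655842, same strand), singled out after its values were seen, had 5 of 6 WT libraries between 0 and 26.8 normalized counts and WT replicate 4 at 284, and in rd6 the values ran from 4.77 to 217. Its log2 fold change was 1.74 with an interval from -1.22 to 4.70 (q = 0.394), and its difference from *Adam7* was not tested.

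*Adam22* (ENSMUSG00000040537, chr5:8072352-8368160, minus strand), a surface receptor for the secreted LGI proteins of neurons, ranged from 435 to 609 in WT (median 523) and from 306 to 384 in rd6 (median 341). The groups did not overlap. The transcript fell by 0.59 ± 0.085 on the log2 scale (1.51-fold, limma q = 0.000331). *Adam23*, another receptor of that kind, had 1041 ± 184 in WT and 1158 ± 92.9 in rd6 (log2 fold change 0.17, q = 0.284). *Adam1a* (ENSMUSG00000072647, chr5:121518576-121545482, minus strand), a fertilin subunit of sperm, had 72.1 ± 19.4 in WT and 43.9 ± 8.74 in rd6, with overlapping ranges (log2 fold change -0.68 ± 0.20, q = 0.0266). It is an uncertain count, since 63.7% of its exon bases are shared with 3 other genes, *Tmem116* on the opposite strand and *Gm42878* and *Mapkapk5* on the same strand. *Tmem116* and *Mapkapk5* were at 78.7 and 40.9 normalized counts in WT and at 89.0 and 34.7 in rd6. Its call was lost without WT replicate 1, 2 or 3 or rd6 replicate 2 or 6, with q between 0.0562 and 0.0621.

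**Figure D3:**
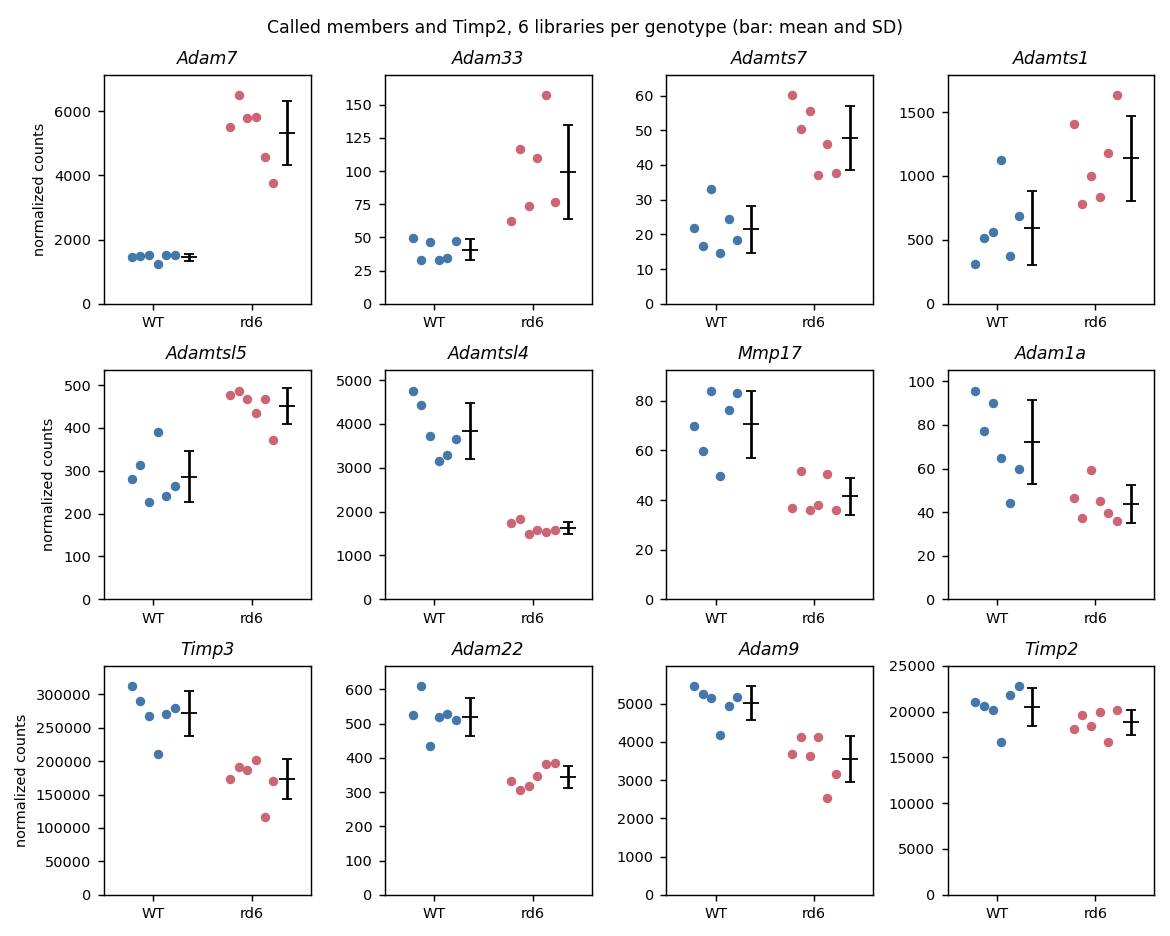
Normalized counts (vertical axes, from 0) of the 11 called members and *Timp2* in the 6 WT (blue) and 6 rd6 (red) libraries, 1 point per library, with the mean and SD beside each group. *Adam7*, *Adam33* and *Adamts7* show rd6 points all above the WT points, *Adamtsl4*, *Timp3*, *Adam22* and *Adam9* show them all below, and *Timp2* overlaps.

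Among the ADAMTS enzymes that cut the proteoglycans aggrecan and versican, 1 of 6 rose, against 11.4% of all genes. The other 5 did not pass the test with all libraries. *Adamts1* (ENSMUSG00000022893, chr16:85793827-85803113, minus strand), which is also known to restrain angiogenesis, ranged from 314 to 1122 normalized counts in WT (median 540) and from 777 to 1630 in rd6 (median 1091). WT replicate 4 was the highest WT library and lay within the rd6 range, while the other 5 WT libraries lay below all rd6 libraries. The transcript rose by 1.01 ± 0.28 on the log2 scale (2.01-fold, 95% interval 1.32 to 3.07, limma q = 0.0211). Without the 3 libraries richest in ocular surface keratins the log2 fold change was 1.103 (q = 0.0115). *Adamts5*, the next gene on that chromosome (chr16:85856173-85901828, same strand) and a strong aggrecanase, had 130 ± 114 in WT and 188 ± 97.8 in rd6, with a wide interval of the fold change from 0.798 to 3.52 (q = 0.309). Its highest libraries were WT replicate 4 at 349 and rd6 replicate 1 at 348.

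The procollagen N-proteinases *Adamts2* and *Adamts3* did not pass the test by limma, edgeR or DESeq2, with *Adamts2* lower at an unadjusted p below 0.05. *Adamts2* averaged 187 ± 34.6 in WT and 134 ± 48.4 in rd6 (log2 fold change -0.54, limma q = 0.108), with 3 of 6 rd6 libraries below the WT range. *Adamts3* had 24.8 ± 6.41 and 21.2 ± 11.1 (q = 0.507). Of the 5 other ADAMTS genes tested 1 rose, against 11.4% of all genes. *Adamts7* (ENSMUSG00000032363, chr9:90163069-90208071, plus strand), which cuts the cartilage protein COMP, ranged from 14.6 to 33.2 in WT (median 20.03) and from 37.2 to 60.1 in rd6 (median 48.3). The lowest rd6 library exceeded the highest WT library. The transcript rose by 1.15 ± 0.21 on the log2 scale (2.22-fold, q = 0.00187). Without the 5 libraries richest in ocular surface keratins, left out after seeing the data, its log2 fold change was 0.82 and the call was lost (q = 0.0871). It is on the same chromosome as *Mfrp* (chr9:44101729-44109187), as are *Mmp3*, *Mmp12*, *Adamts8*, *Adamts15* and *Adam10*, none of which was called. *Adamts10* and *Adamts6*, whose products bind fibrillin microfibrils, had 940 ± 273 and 62.9 ± 20.9 in WT and 762 ± 206 and 60.2 ± 16.8 in rd6 (q = 0.361 and 0.933).

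The ADAMTS-like genes had the largest fall among the members called. *Adamtsl4* (ENSMUSG00000015850, chr3:95676201-95687917, minus strand), a microfibril protein whose loss in humans displaces the lens, ranged from 3158 to 4754 normalized counts in WT (median 3694) and from 1483 to 1836 in rd6 (median 1580). The groups were far apart, with the lowest WT library, replicate 4, well above the highest rd6 library. The transcript fell by 1.23 ± 0.098 on the log2 scale, 2.34-fold (95% interval 2.02 to 2.71, limma q = 2.37e-06), and over the 23 alternative settings the log2 fold change lay between -1.31 and -1.16. *Adamtsl5* (ENSMUSG00000043822, chr10:80339110-80348412, minus strand), a secreted relative, ranged from 227 to 390 in WT (median 272) and from 372 to 487 in rd6 (median 468). Only WT replicate 4, at 390, and rd6 replicate 6, at 372, crossed. The transcript rose by 0.67 ± 0.12 on the log2 scale (1.596-fold, q = 0.00174). The other 3 ADAMTS-like genes did not pass limma's test with all libraries. Among them *Adamtsl2* had 90.4 ± 41.8 in WT and 168 ± 75.0 in rd6 (q = 0.0780) and *Adamtsl3* had 207 ± 31.3 and 134 ± 64.1 (q = 0.0727), both singled out after their values were seen. DESeq2 called *Adamtsl2* higher with all libraries. In limma its log2 fold change was 0.88 with all libraries, 1.07 without WT replicate 4 (q = 0.0235) and 1.096 without the 3 libraries richest in ocular surface keratins (q = 0.0366). Without rd6 replicate 1 or rd6 replicate 2 *Adamtsl3* passed, with a log2 fold change of -0.92 in both cases (q = 0.0375 and 0.0396), against -0.77 with all libraries.

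In 4 of 51 members (7.84%, against 7.56% of all genes tested) the 3 highest libraries were WT replicate 4, rd6 replicate 5 and rd6 replicate 1, the libraries richest in ocular surface keratins: *Adam28*, *Adamts16*, *Adamts5* and *Mmp14*. *Adamts16* had 97.1 normalized counts in WT replicate 4 and between 1.11 and 15.5 in the other 5 WT libraries. In these 4 members the highest WT value was therefore that of WT replicate 4, and the highest rd6 values were those of rd6 replicates 1 and 5. Without those 3 libraries *Adam28* had a log2 fold change of 1.53 (limma q = 0.313), *Adamts16* one of 0.25 (q = 0.872) and *Adamts5* one of 0.70 (q = 0.221), against 1.74, 0.51 and 0.74 with all libraries. Without WT replicate 4 alone the values were larger, at 2.74 for *Adam28* (q = 0.0903), 1.24 for *Adamts16* (q = 0.370) and 1.103 for *Adamts5* (q = 0.0646). Without the 5 libraries richest in these keratins they were 1.55, 1.53 and 1.03 (q = 0.284, 0.226 and 0.1498). With those 3 libraries left out, 7 members were higher and 5 lower, *Adamtsl2* and *Mmp14* being gained (*Mmp14* at a log2 fold change of 0.45, limma q = 0.00358) and *Adam1a* lost. With WT replicate 2 and rd6 replicate 2 left out as well, 5 were higher and 5 lower, with *Mmp14* gained and *Adamts7* and *Adam1a* (q = 0.254) lost.

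**Figure D4:**
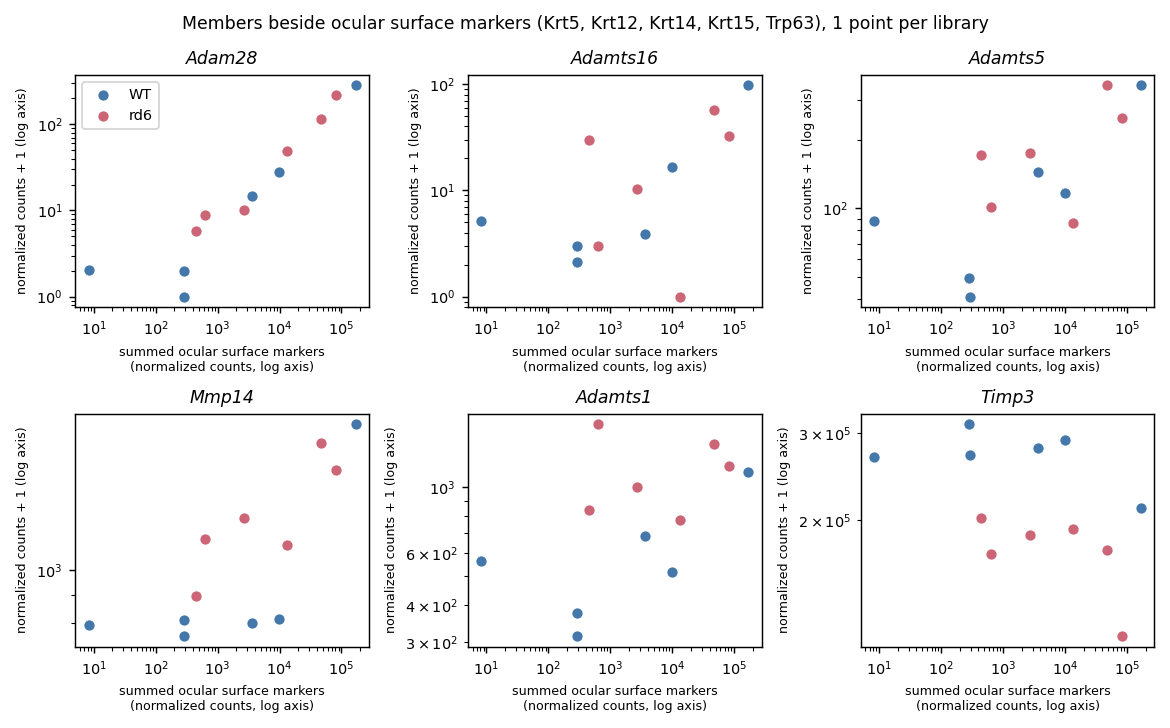
Normalized counts + 1 of 6 members (vertical, log axes) against the summed normalized counts of the ocular surface markers *Krt5*, *Krt12*, *Krt14*, *Krt15* and *Trp63* (horizontal, log axes), 1 point per library, WT in blue and rd6 in red. *Adam28*, *Adamts16*, *Adamts5* and *Mmp14* have their 3 highest values in the 3 libraries at the right, of 47398 or more, while *Timp3* separates by genotype.

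The other genes that act with these families were followed in 9 lists, whose counts stand against 11.4% of all genes tested called higher and 11.6% lower. Of 6 further protease inhibitors tested 1 rose and 1 fell. *A2m*, for alpha-2-macroglobulin, a trap for proteases of all classes, ranged from 13624 to 17294 normalized counts in WT and from 88280 to 102616 in rd6, 6.24-fold higher (95% interval 5.64 to 6.90, limma q = 8.59e-11). Of the 4 astacins and enhancers tested 1 rose: *Pcolce*, which speeds removal of the procollagen C-propeptide, went from 11824 ± 1203 to 31899 ± 1673 (2.71-fold, q = 4.21e-08). Neither gene overlapped between the genotypes.

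In plasminogen activation 2 of 7 genes rose, against 11.4% of all genes. Urokinase, *Plau*, had 15.6 to 29.0 normalized counts in 5 WT libraries, 115 in WT replicate 4 and 72.9 to 108 in rd6 (3.08-fold, limma q = 0.0100). Its log2 fold change was 1.62 with all libraries, 2.02 without WT replicate 4 (q = 1.03e-05) and 1.93 without the 3 libraries richest in ocular surface keratins (q = 0.000120). Of 8 cathepsins, the lysosomal proteases, 5 rose, against the same 11.4% of all genes. *Ctss*, a cathepsin of macrophages and microglia, went from 356 ± 127 to 5132 ± 1707 (14.3-fold, q = 4.95e-07) and *Ctsk*, which cuts collagen, from 450 ± 31.5 to 958 ± 76.1 (2.13-fold, q = 2.21e-07). Beside these, 12 of 13 microglia and macrophage markers rose, with a median log2 fold change of 3.44 over the 13. The 12 summed to between 894 and 2228 normalized counts in WT and between 8433 and 20311 in rd6. The other marker, *Csf1r*, was at 17256 ± 2183 in WT and 18741 ± 1810 in rd6 (q = 0.385). The part of these cells in the values of the cathepsins was not tested.

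Of the 15 surface proteins that ADAMs shed, 5 rose and 2 fell, against 11.4% and 11.6% of all genes. *Tnfrsf1a*, for the main receptor of tumor necrosis factor, ranged from 2469 to 2793 normalized counts in WT and from 4402 to 4977 in rd6 (1.79-fold higher, limma q = 1.03e-07). *Tgfa*, for a ligand of the epidermal growth factor receptor, ranged from 1461 to 2031 in WT and from 651 to 912 in rd6 (2.29-fold lower, q = 1.48e-06). Both genes separated the genotypes without overlap. Of 9 chaperones of ADAMs, the iRhoms and tetraspanins, 1 rose and 1 fell, shares close to those of all genes, and of 4 proprotein convertases 1 fell. Of 10 matrix substrates 1 rose, and of 4 receptors and inducers 1 fell. The rest of these lists did not pass the test.

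**Figure D5:**
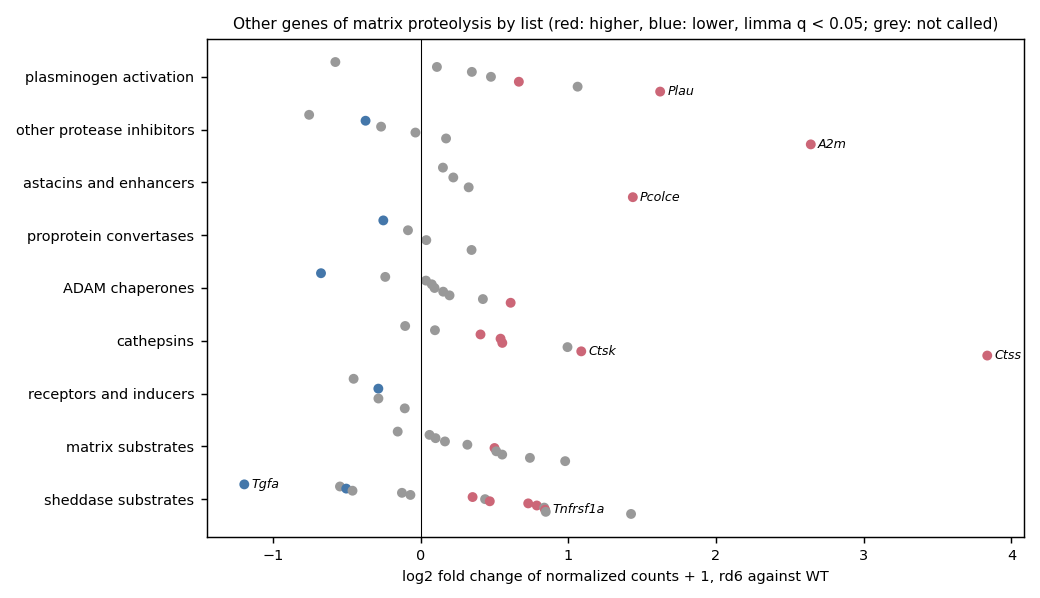
Log2 fold change of rd6 against WT (horizontal axis, from normalized counts + 1) of the genes tested in the 9 further lists (rows), 1 point per gene, red for higher and blue for lower at q below 0.05 and grey for the rest. Named points also passed the fold limit, with *Ctss* farthest to the right at 3.84 and *Tgfa* farthest to the left of them at -1.19.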

How the data were processed

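RPE libraries of 6 WT and 6 rd6 mice, 1 mo old, were compared, with groups from the labels. The authors demultiplexed with bcl2fastq, aligned to mm10 and counted with Rsubread. The deposited signal is each gene's read count in a library after division by the size factor that DESeq2 gave that library (normalized counts). Their fold-change and p-value columns were not used. Of 28596 entries 5 repeats were dropped. Values were whole multiples of 1 read in 100% of cases (tolerance 1e-06). A floor of 3 reads equals 2.71 to 3.32 normalized counts and covers counting error only. No 2 libraries were copies of each other (lowest chi-square of a pair, averaged over genes, 8.94).

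limma 3.58.1 (lmFit, eBayes with trend) was run on log2(normalized count + 1) for the 17768 genes whose mean reached 10, with genotype as the only term. Fold changes on that scale understate changes of low genes. Calls used q below 0.05, with 1.75-fold as a second limit. Normalized counts per kb used the exon lengths of GENCODE M21 over all transcripts. Promoters came from RefSeq. Alternatives were edgeR 4.0.16 and DESeq2 1.42.0 on the recovered reads, other pseudocounts (0.1 and 10), filters, a TMM rescaling, a replicate block and leaving out each library. The fit was tested on simulated data. No batch is given in the labels.

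Named were members past q and 1.75-fold, the 4 *Timp* genes, *Mmp2*, *Mmp9*, *Mmp14*, *Adam9*, *Adam10*, *Adam17*, the 2 members with the highest level per kb in each role and every other called member, and in the further lists genes past both limits. Members and lists were chosen with earlier results of these data known.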

Additional observations from a re-analysis of the deposited data

Results flagged for a closer look

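In the 54 groups of 6 libraries formed by the 27 named members, 4 held a library set apart by Dixon's test at its 95% critical value for 6 samples, and chance sets apart about 1 in 20 groups. The gap of the extreme library to its neighbour, divided by the range of the group, was 0.948 for *Mmp14* in WT replicate 4, at 1831 normalized counts. It was 0.788 for *Adam7* in WT replicate 4, at 1231, the lowest WT value, and 0.666 for *Adamts5* in WT replicate 4, at 349. For *Timp3* it was 0.637 in rd6 replicate 5, at 116745, the lowest rd6 value. Both libraries are among the 3 richest in ocular surface keratins.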

How the results depend on the processing

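Of 23 alternatives, 2 were chosen after seeing the data, leaving out the 3 and the 5 libraries richest in ocular surface keratins. Both raised the members lower with the fold limit from 1 to 2, and the second lowered the count of all genes to 1134 higher and 1181 lower. Leaving out single libraries gave 5 to 7 members higher and 5 to 8 lower, 4 to 5 and 1 to 3 with the fold limit, and 1631 to 2428 and 1593 to 2293 genes. In that step *Adamts6* ranged from -0.19 to 0.095, *Mmp15* from -0.051 to 0.020 and *Mmp2* from -0.18 to 0.079 on the log2 scale, all uncalled. It also added calls of lower *Adamts4* (without rd6 replicate 1), *Adam11* (without WT replicate 5 or rd6 replicate 5) and *Mmp24* (without rd6 replicate 5), of higher *Adam15* (without rd6 replicate 4) and of higher *Adamtsl2* (without WT replicate 4). The cause was not tested.

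With edgeR 4066 genes were called under TMM and 4037 under RLE, each with the same 11 members. DESeq2 called 4732 of 21279 genes and 13 members, adding *Adamtsl2* (higher) and *Adam11* (lower). With the replicate number as a block, 4 members were higher and 6 lower, *Adamts1* being lost (q = 0.0625) and no other member's call changed. Pseudocounts of 0.1 and 10, both other filters and the TMM rescaling called the same 11 members. Across genes, the deviations of same-numbered libraries from their genotype means correlated between -0.743 and 0.315 (mean -0.246). The numbers were therefore not taken to pair the mice. Depth limits the members of low count most, such as *Mmp9*, *Adamts3* and *Adamts7*, with genotype means of 18.5 to 47.8 normalized counts.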
